A study of Mus musculus with 24 samples.

Results

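S100 proteins are small calcium-binding proteins, and 10 of their genes, S100a3, S100a4, S100a6, S100a7a, S100a8, S100a9, S100a10, S100a11, S100a14 and S100a16, were followed through mouse skin and day 3 wounds. They were taken by gene symbol from an expression table of 18368 genes, and all 10 were found there. The table covers 24 libraries from 12 mice of the outbred CD1 stock, aged 7 weeks, all wild-type as far as the labels say. At the abdomen, back or cheek, 4 mice each gave a 2 mm full-thickness punch wound collected at day 3 and an adjacent unwounded piece of skin, so the 6 groups are the unwounded controls and the wounds of the 3 sites, with 4 libraries in each. Each mouse contributed a single site, so sites were compared between mice and wounding within mice. Mice received 1 wound at the cheek or 2 at the abdomen or back, and the sources used here do not say whether 2 wounds of a mouse were pooled. RNA was extracted from whole tissue, so a lower value can come from fewer cells of a type or from less RNA per cell, and these cannot be told apart.

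S100 proteins carry a pair of EF-hand calcium-binding loops and mostly act as dimers. Calcium binding exposes a surface that docks onto partners such as annexins and cytoskeletal proteins inside the cell. Some are also released and then act as danger signals: S100a8 and S100a9 form calprotectin, which is abundant in neutrophils, is induced in stressed keratinocytes, withholds metal ions from microbes and signals through Tlr4 and the receptor for advanced glycation end products, encoded by Ager. S100a4 is known from motile fibroblasts and leukocytes, S100a6 from proliferating cells, S100a10 as the partner of annexin A2, and S100a11 as a partner of annexin A1. S100a14 and S100a16 are known from epithelia, S100a3 from the hair cuticle, and S100a7a is the mouse relative of psoriasin, an antimicrobial protein of inflamed epidermis.

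All 10 genes lie on chromosome 3 in the RefSeq annotation of GRCm38.p6. Of 12 S100 genes that lie within 185 kb (chr3:90511034-90695721), 8 were members, in the order S100a14, S100a16, S100a3, S100a4, S100a6, S100a7a, S100a8 and S100a9. S100a11 and S100a10 lie as neighbours 2825 kb further on, beyond genes of the cornified envelope. S100a8 (chr3:90669071-90670034, plus strand) and S100a9 (chr3:90692630-90695721, minus strand) are adjacent in the list and point towards each other across 22.6 kb. The annotated span of S100a3 overlaps that of S100a2, and whether reads were shared between them was not tested.

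The promoter stretches of 5 members are shown because these are the genes whose mean wound effect passed the test. RefSeq windows running from 250 bases before the annotated start to 50 bases after it were given for 8 of the 10 members. No window was given for S100a10 or S100a14. Each line below runs 5′ to 3′ over 260 bases and ends 10 bases after the start. Capitals mark matches to 4 motifs, each searched on both strands. The TATA box was searched as TATAAA. The AP-1 motif was TGANTCA, and that of C/EBP was TTGCNNAA. The fourth was the NF-kB motif. No 2 of these matches overlapped.
S100a8: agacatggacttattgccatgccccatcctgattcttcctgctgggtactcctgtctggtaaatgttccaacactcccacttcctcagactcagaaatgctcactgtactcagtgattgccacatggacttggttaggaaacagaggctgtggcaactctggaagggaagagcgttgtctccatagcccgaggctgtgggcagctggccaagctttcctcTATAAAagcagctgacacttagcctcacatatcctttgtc
S100a9: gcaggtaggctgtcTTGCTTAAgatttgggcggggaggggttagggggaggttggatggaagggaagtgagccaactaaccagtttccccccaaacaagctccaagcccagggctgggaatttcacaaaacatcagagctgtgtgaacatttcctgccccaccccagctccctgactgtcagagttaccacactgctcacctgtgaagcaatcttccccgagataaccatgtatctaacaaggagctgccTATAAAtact
S100a11: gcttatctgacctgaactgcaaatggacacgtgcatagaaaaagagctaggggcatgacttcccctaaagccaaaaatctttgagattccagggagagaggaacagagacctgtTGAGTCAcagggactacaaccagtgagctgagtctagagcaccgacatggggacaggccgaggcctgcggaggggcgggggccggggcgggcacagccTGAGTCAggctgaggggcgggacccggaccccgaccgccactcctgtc
S100a6: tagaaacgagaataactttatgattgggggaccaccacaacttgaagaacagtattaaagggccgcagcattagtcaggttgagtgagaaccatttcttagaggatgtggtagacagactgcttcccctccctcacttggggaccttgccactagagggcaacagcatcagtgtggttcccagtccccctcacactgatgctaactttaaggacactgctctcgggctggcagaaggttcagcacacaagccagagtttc
S100a4: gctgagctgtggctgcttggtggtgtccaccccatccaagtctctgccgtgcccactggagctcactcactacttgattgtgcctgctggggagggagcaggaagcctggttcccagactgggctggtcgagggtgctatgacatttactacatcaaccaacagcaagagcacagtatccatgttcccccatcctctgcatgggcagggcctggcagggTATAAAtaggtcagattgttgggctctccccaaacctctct
The S100a8 stretch (chr3:90668821-90669080, plus strand) held TATAAA at position -30 from the start, and the S100a4 stretch (chr3:90603520-90603779, plus strand) held it at position -31. In S100a9 (chr3:90695712-90695971, minus strand) the same letters began at the annotated start itself, and a C/EBP match lay at position -236. Both positions count from the annotated start, and whether transcripts in these libraries begin there was not tested. S100a11 (chr3:93520246-93520505, plus strand) held AP-1 matches at positions -136 and -38. S100a6 (chr3:90612644-90612903, plus strand) held none of the 4 motifs. Of 32851 windows of 300 bases, 13.6% held TATAAA, 7.81% the AP-1 letters, 10.8% the C/EBP letters and 4.79% the NF-kB letters. These matches describe letters, and whether any of them is a binding site was not tested.

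Levels were taken as FPKM (fragment counts divided by transcript length and by the mapped fragments of the library), so that genes of unequal length can be ordered. In unwounded skin S100a11 was the most abundant member, with a mean of 1201 FPKM ± 241 (SD, n = 12), rank 64 among the 18368 genes. It was followed by S100a6 with a mean of 480 FPKM ± 80.3, S100a10 with 428 ± 83.8, S100a4 with 357 ± 104, S100a14 with 310 ± 78.6 and S100a16 with 259 ± 61.5 (SD, n = 12). The neighbours in this order after S100a11 differed by less than 1 SD. S100a8 and S100a9 had means of 6.47 FPKM ± 8.27 and 5.99 FPKM ± 3.92, ranks 8389 and 8676. S100a7a and S100a3 were under 10 FPKM in 11 of the 12 unwounded libraries and far above that in the unwounded library of cheek mouse 4, which is described below.

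In wounds the order changed. S100a11 was again first, with a mean of 1810 FPKM ± 276 (SD, n = 12), rank 36 of all genes. S100a9, at a mean of 648 FPKM ± 306, stood beside S100a6 at 646 ± 61.3, and S100a8 at 422 ± 226 stood beside S100a10 at 428 ± 62.9 (SD, n = 12). The 10 members summed to between 0.454% and 0.770% of all FPKM in unwounded libraries and to between 0.704% and 1.18% in wounds. S100a8 and S100a9 together made up at most 0.965% of the members' sum in unwounded skin and between 8.19% and 35.0% of it in wounds.

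**Figure D1:**
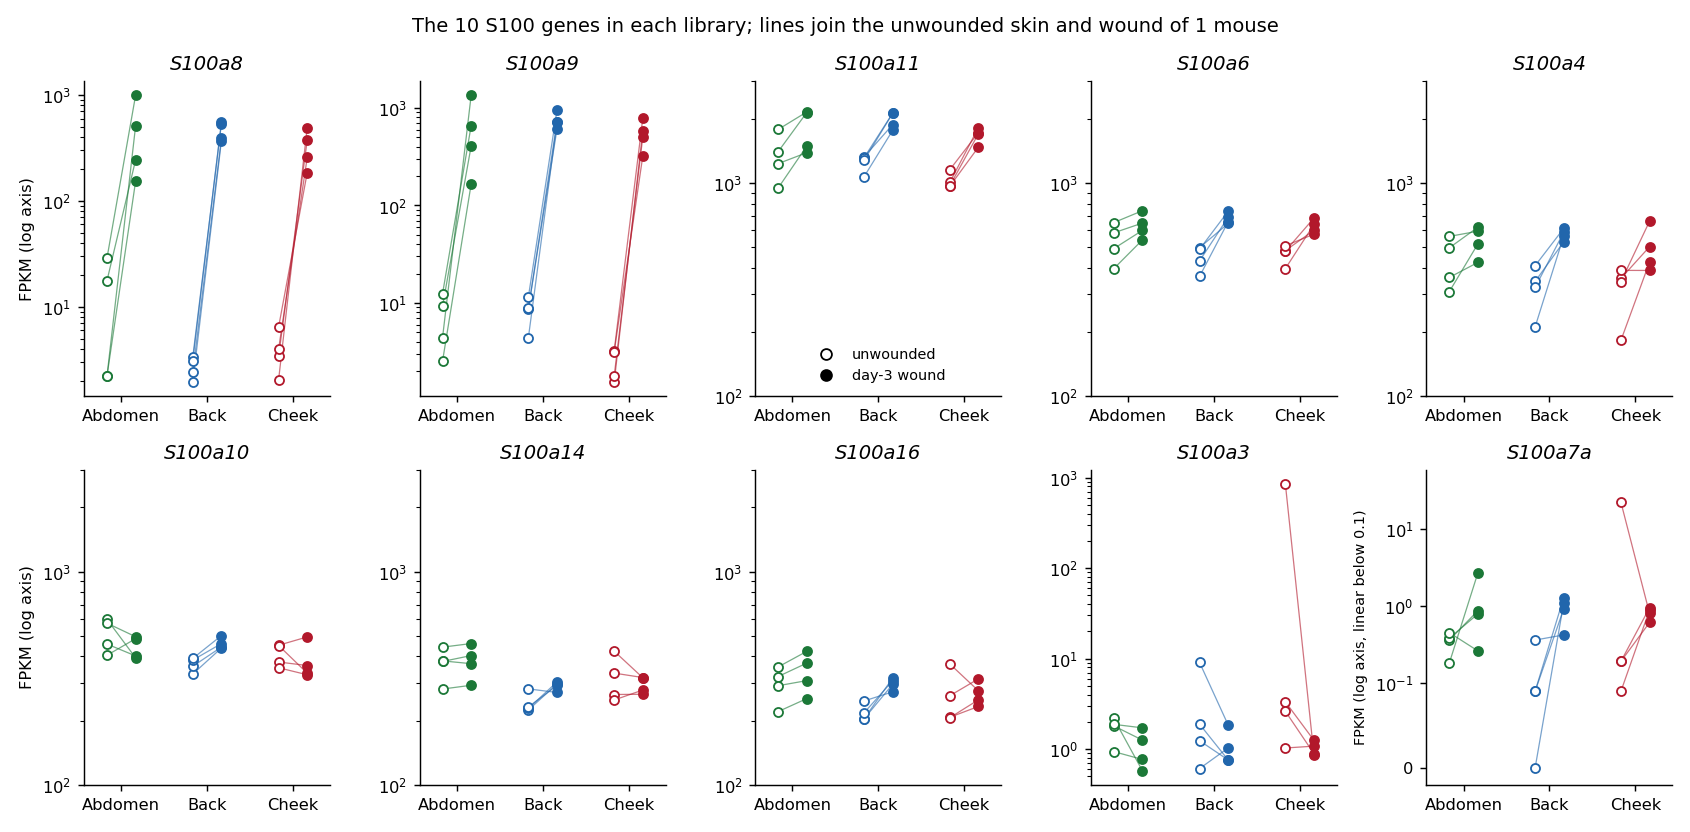
FPKM of the 10 S100 genes in the 24 libraries, on log axes (S100a7a is linear below 0.1), by site; open circles are unwounded skin, filled circles day 3 wounds, and each line joins the 2 libraries of 1 mouse. All wound libraries of S100a8 and S100a9 sit above all unwounded ones, and the unwounded library of cheek mouse 4 stands apart for S100a3 and S100a7a.

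Wounding was the first comparison, made within mice. S100a8 and S100a9, the subunits of calprotectin, were higher in the wound of 12 of 12 mice, by a mean of 6.31 ± 0.31 and 6.74 ± 0.24 (SE) on the log2(FPKM + 0.5) scale. S100a11, S100a6 and S100a4 were also higher, by 0.60 ± 0.06, 0.44 ± 0.06 and 0.62 ± 0.11 (SE). The other 5 members did not pass the test. Thus 5 of 10 members were called, all higher, at an adjusted p under 0.001 (limma with a term for each mouse, Benjamini-Hochberg over 14423 genes), where 19.1% of all tested genes were called higher. The median effect of the 10 members was 0.50 (log2), beside 0.02 over all tested genes. The members and gene lists were chosen with earlier results of these data known. Their counts beside all tested genes, here and below, are therefore descriptions and not tests.

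By site, 2 members were called in the abdomen, 4 in the back and 3 in the cheek, all higher, beside 3.92%, 10% (1443 of 14423) and 6.50% of tested genes called higher. At an adjusted p under 0.05 the members called higher were 3, 8, 5 and, for the mean effect, 6, beside 16.9%, 28.0%, 19.7% and 33.3% of tested genes. S100a8 and S100a9 were called at all 3 sites, S100a11 in back and cheek, and S100a6 in back. Members had a median effect of 0.31 in the abdomen, 0.64 in the back and 0.25 in the cheek (log2), with medians over all genes of -0.01, 0.07 and 0.01. Every wound library lay above every unwounded one for 2 members in the abdomen, 8 in the back and 4 in the cheek, beside 13.4%, 25.0% and 16.7% of tested genes, and over all 24 libraries for S100a8 and S100a9, beside 5.57%. The wound value was the higher one in every mouse for 6 members in the abdomen, 8 in the back, 4 in the cheek and 4 over all 12 mice, beside 23.7%, 33.9%, 25.0% and 14.4%.

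**Figure D2:**
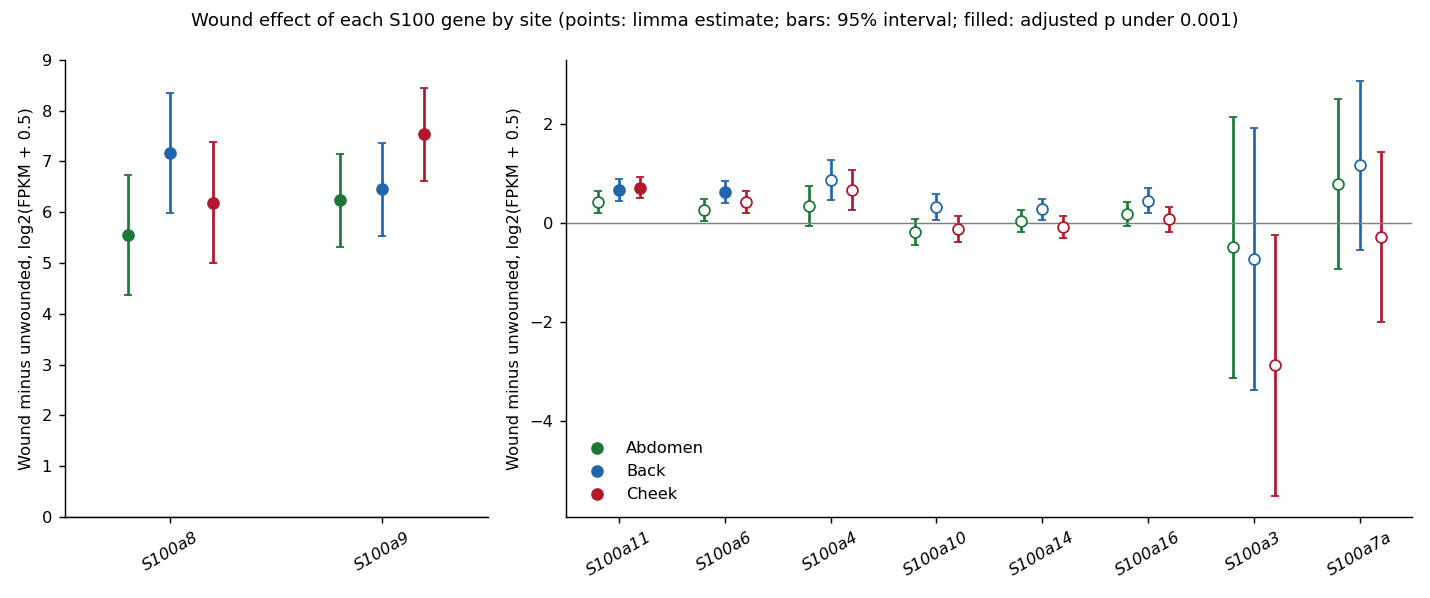
Wound effect of each S100 gene, as wound minus unwounded on the log2(FPKM + 0.5) scale, by site; points are limma estimates from 4 mice per site, bars 95% intervals, and filled points have an adjusted p under 0.001. The left panel runs from 0 to 9 and the right panel has an axis of its own: S100a8 and S100a9 lie above 5 at every site, and the widest intervals are those of S100a3.

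S100a8, the smaller calprotectin subunit, was nearly silent in most unwounded skin. In unwounded abdomen it was at 28.8, 2.2, 17.6 and 2.21 FPKM in mice 1 to 4, in back at 3.37, 3.1, 1.95 and 2.42, and in cheek at 3.42, 4.0, 2.05 and 6.46. In wounds it was at 994, 509, 243 and 153 FPKM in abdomen mice 1 to 4, at 535, 555, 369 and 390 in back, and at 377, 257, 493 and 185 in cheek. No wound library overlapped the unwounded libraries, and abdomen mice 1 and 3 had the highest unwounded values of the 12. Effects were 5.55 ± 0.54 (abdomen), 7.17 ± 0.54 (back) and 6.19 ± 0.54 (cheek) (log2 ± SE), with adjusted p of 6.06e-05, 4.48e-06 and 1.63e-05 (limma). An exact test over all sign changes within the 12 mice gave p = 0.000488 (two-sided), the smallest it can give, while within the 4 mice of a site no exact p under 0.125 was possible. The spread between mice was widest in abdomen wounds, with a coefficient of variation of 79.6%, against 20.8% in back wounds and 41.2% in cheek wounds.

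S100a9, which pairs with S100a8, was also highest in the wound of abdomen mouse 1 and lowest in that of abdomen mouse 4. In unwounded skin it was at 4.42, 12.5, 9.3 and 2.53 FPKM in abdomen mice 1 to 4, at 11.5, 8.69, 8.83 and 4.4 in back, and at 1.55, 1.79, 3.24 and 3.16 in cheek. In wounds it was at 1348, 659, 407 and 166 FPKM in abdomen, at 951, 723, 608 and 712 in back, and at 584, 509, 791 and 323 in cheek. All wounds lay above all unwounded libraries, and the unwounded cheek libraries all lay below the unwounded back libraries. Effects were 6.23 ± 0.41 (abdomen), 6.45 ± 0.41 (back) and 7.54 ± 0.41 (cheek) (log2 ± SE), with adjusted p of 5.89e-06, 1.71e-06 and 7.97e-07 (limma). Over the 12 mice the exact sign-change test again gave p = 0.000488, its smallest value. When the 8 abdomen libraries were fitted alone, S100a8 and S100a9 kept their effects there but no longer passed 0.001 (adjusted p of 0.0128 and 0.00592).

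The FPKM ratio of S100a9 to S100a8 was even across wounds, between 1.08 and 1.98 with a median of 1.62 (n = 12). In unwounded skin it ran from 0.153 in abdomen mouse 1 to 5.66 in abdomen mouse 2. It lay between 1.82 and 4.53 in unwounded back and between 0.448 and 1.58 in unwounded cheek, so these groups did not overlap, at levels of both genes that were mostly under 10 FPKM. As deviations from the site means, S100a8 and S100a9 ran together in the 12 wounds with r = 0.96, and over the 24 libraries with r = 0.45. These correlations describe libraries that share normalisation and tissue composition.

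Markers of other cells moved with wounding as well. The wound-edge keratinocyte genes Krt6a, Krt6b, Krt16 and Krt17 summed to between 387 and 1285 FPKM in unwounded skin and to between 2107 and 14680 in wounds, and 4 of 4 were called higher. Of the 13 neutrophil genes, 11 were tested and 7 were called higher and 2 lower; Il1r2 and Mpo, the 2 that were lower, supplied most of the summed level in unwounded skin. The full list summed to between 176 and 234 FPKM in unwounded abdomen and to between 161 and 224 in abdomen wounds, to between 102 and 131 in unwounded back and cheek, and to between 168 and 311 in their wounds. Without those 2 genes the list summed to between 2.89 and 10.01 FPKM in unwounded libraries and to between 54.4 and 235 in wounds, a choice made after the data were seen. Of its defining genes, Ltf, Elane and Ly6g were at or near 0 throughout, with maxima of 0.45, 0.5 and 0.9 FPKM. Macrophage genes, led by Lyz2, summed to between 735 and 1558 FPKM in unwounded skin and to between 1520 and 2870 in wounds, with 7 of 9 called higher. The counts of these 3 lists are for the mean wound effect, where 19.1% of all tested genes were called higher and 14.4% lower.

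As deviations from the site means, pooled over the 12 wounds, S100a8 ran against the summed skeletal muscle genes (r = -0.83). It ran with the keratinocyte sum (r = 0.71). Its r was 0.26 with the full neutrophil sum, 0.51 with that sum without Il1r2 and Mpo, and -0.37 with the macrophage sum. For S100a9 the values in the same order were -0.85, 0.76, 0.39, 0.63 and -0.42. In the abdomen wounds, mouse 1 had the highest S100a8, S100a9 and Krt6b (4999 FPKM), and mouse 4 the lowest of all 3 (Krt6b at 586). Muscle sums there ran from 1620 FPKM in mouse 1 to 4987 in mouse 4. In back wounds, mouse 3 had the lowest S100a8 and S100a9, the lowest muscle sum (3021) and the highest keratinocyte sum (10920). In cheek wounds, mouse 3 had the highest S100a8 and S100a9, the lowest muscle sum (4524) and the highest keratinocyte sum (11990). No r was computed within a single site, so the pooled values need not hold at each. The part of keratinocytes, neutrophils and muscle in the level of S100a8 and S100a9 was not tested.

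**Figure D3:**
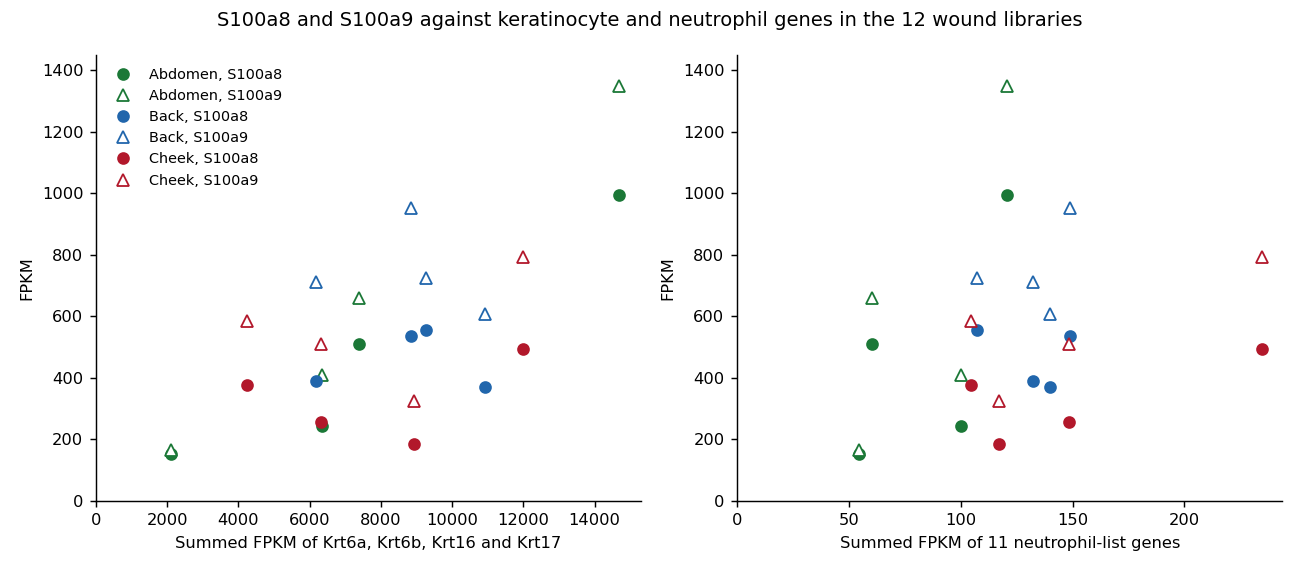
FPKM of S100a8 (filled circles) and S100a9 (open triangles) in the 12 wound libraries against the summed FPKM of 4 wound-edge keratinocyte genes (left) and of 11 neutrophil-list genes (right), with linear axes from 0 and colours for sites. The 11 are the 13 neutrophil genes without Il1r2 and Mpo, a choice made after the data were seen. Abdomen mouse 1 lies highest for both genes at a keratinocyte sum of 14680, and abdomen mouse 4 lowest at 2107.

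S100a11, an annexin A1 partner that is linked to keratinocyte differentiation, was the most abundant member everywhere. In unwounded skin it was at 1399, 1230, 1779 and 945 FPKM in abdomen mice 1 to 4, at 1322, 1066, 1309 and 1273 in back, and at 964, 1004, 1152 and 969 in cheek. In wounds it was at 2135, 1385, 2148 and 1486 FPKM in abdomen, at 1872, 1759, 2118 and 2115 in back, and at 1470, 1813, 1720 and 1698 in cheek. It was higher in the wound of 12 of 12 mice, and the groups overlapped in the abdomen only. The effect was 0.66 ± 0.10 in back and 0.71 ± 0.10 in cheek (log2 ± SE; adjusted p of 0.000237 and 0.000207), and 0.43 ± 0.10 in abdomen, with an adjusted p of 0.00725, did not pass. With each mouse left out the effect lay between 0.64 and 0.72 in back and between 0.67 and 0.76 in cheek (log2), while the calls changed. Without back mouse 2, 3 or 4 the back call was lost (limma, adjusted p of 0.00241, 0.00204 and 0.00186). Without cheek mouse 1, 2 or 4 the cheek call was lost (0.00113, 0.00202 and 0.00126). The calls held without back mouse 1 and without cheek mouse 3. The 8 cheek libraries fitted alone also lost the cheek call (0.00424). With no term for the mouse both calls were lost as well (0.00256 and 0.00204). The mean effect over the sites kept an adjusted p of 1.53e-05 or less with each mouse left out.

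S100a6, known as calcyclin, was at 492, 583, 651 and 396 FPKM in unwounded abdomen, at 497, 364, 488 and 431 in back, and at 481, 396, 479 and 507 in cheek. In wounds it was at 598, 648, 740 and 540 FPKM in abdomen, at 645, 657, 736 and 689 in back, and at 599, 638, 684 and 575 in cheek. Each mouse had more in its wound, and the groups did not overlap in back and cheek. The effect was 0.62 ± 0.10 in back (log2 ± SE; adjusted p = 0.000391), and 0.27 ± 0.10 in abdomen and 0.42 ± 0.10 in cheek did not pass (adjusted p of 0.0611 and 0.00641). Without back mouse 2, 3 or 4 the back call of S100a6 was lost (0.00429, 0.00248 and 0.0028), as it was with the 8 back libraries fitted alone (0.00132). Quantile normalisation ended the back calls of both S100a6 and S100a11 (0.0021 and 0.00299).

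S100a4, also called fibroblast-specific protein although leukocytes express it too, was at 360, 561, 496 and 309 FPKM in unwounded abdomen, at 345, 211, 409 and 323 in back, and at 357, 344, 389 and 183 in cheek. In wounds it was at 424, 593, 619 and 517 FPKM in abdomen, at 529, 564, 612 and 587 in back, and at 502, 661, 388 and 425 in cheek. It was higher in the wound of 11 of 12 mice, with cheek mouse 3 level, and only the back groups did not overlap. No single site passed (0.34 ± 0.18 in abdomen, 0.87 ± 0.18 in back and 0.66 ± 0.18 in cheek, log2 ± SE; adjusted p of 0.169, 0.00231 and 0.0143), while the mean effect had an adjusted p of 0.00024 (limma). The fibroblast list summed to between 9089 and 23060 FPKM in unwounded skin and to between 5936 and 12520 in wounds. In the mean effect 2 of 6 of its genes were called lower and none higher, beside 14.4% and 19.1% of all tested genes. Col1a2 was the most abundant. The part of fibroblasts or leukocytes in the level of S100a4 was not tested.

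S100a10, S100a14 and S100a16 did not pass 0.001 at any site or in the mean effect. S100a10, the annexin A2 partner, ranged from 331 to 597 FPKM in unwounded skin and from 328 to 501 in wounds, with a mean effect of 0.01 ± 0.07 (log2 ± SE; 95% interval -0.14 to 0.16). It was higher in the wound of 6 of 12 mice, and its effect was 0.33 in back, -0.18 in abdomen and -0.12 in cheek. The adipocyte list, led by Adipoq, summed to between 102 and 404 FPKM in unwounded skin and to between 85.4 and 221 in wounds. In the mean effect 5 of 5 of its genes were called lower, beside 14.4% of all tested genes. The part of adipocytes in the level of S100a10 was not tested. S100a14 ranged from 225 to 442 FPKM in unwounded skin and from 266 to 460 in wounds (mean effect 0.08 ± 0.06; 95% interval -0.05 to 0.20). S100a16 ranged from 204 to 369 FPKM and from 233 to 423 (mean effect 0.24 ± 0.07; adjusted p = 0.00739). Its effect was 0.45 ± 0.11 in back (log2 ± SE; adjusted p = 0.00656), where all 4 wounds lay above all 4 unwounded libraries, 0.18 ± 0.11 in abdomen and 0.07 ± 0.11 in cheek, and the wound value was the higher one in 11 of 12 mice. Without cheek mouse 4 the mean effect of S100a16 was 0.29 and passed, with an adjusted p of 0.000426.

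S100a3, a hair cuticle protein, was low in all libraries but 1. It was at 1.81, 2.19, 1.88 and 0.94 FPKM in unwounded abdomen, at 0.61, 9.07, 1.89 and 1.24 in back, and at 3.33, 1.03, 2.62 and 847 in cheek. Wounds held 0.58 to 1.85 FPKM. The unwounded library of cheek mouse 4 stood far above all others, and the next was that of back mouse 2. The mean wound effect was -1.37 ± 0.69 (log2 ± SE; adjusted p = 0.106), and without cheek mouse 4 it was -0.66 (adjusted p = 0.0189), above the threshold of 0.001 both times.

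S100a7a, related to psoriasin, was at 22.5 FPKM in the same library and at most 0.45 in the other 11 unwounded libraries. Wounds held 0.26 to 2.71 FPKM, the highest in abdomen mouse 1. In the other 11 mice the wound value was the higher one in 10, with abdomen mouse 4 the exception. The mean effect was 0.55 ± 0.45 (log2 ± SE; adjusted p = 0.303), and without cheek mouse 4 it was 0.98 (adjusted p = 0.00183), which also missed 0.001. In the cheek its sign turned with that mouse, from -0.29 to 1.00 without it.

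The unwounded library of cheek mouse 4 also stood apart in hair genes. The 12 hair shaft and cuticle genes summed to 2429 FPKM there, to 22.6 in unwounded back mouse 2, to 16.8 in unwounded cheek mouse 3, and to between 1.17 and 8.72 in the other 21 libraries. Krt33a, the most abundant, was at 376 FPKM, and Padi3, an enzyme that citrullinates S100a3, was at 77.6 FPKM there against at most 0.99 elsewhere. Tchh, Tchhl1 and Crnn, which carry an S100 domain fused to repeats, were at 562, 141 and 114 FPKM there and at most 8.36, 1.43 and 1.14 elsewhere. S100a4 had its lowest value of all libraries there (183 FPKM), and S100a14 and S100a16 their highest unwounded cheek values (423 and 369). The part of hair follicle tissue in these values was not tested.

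**Figure D4:**
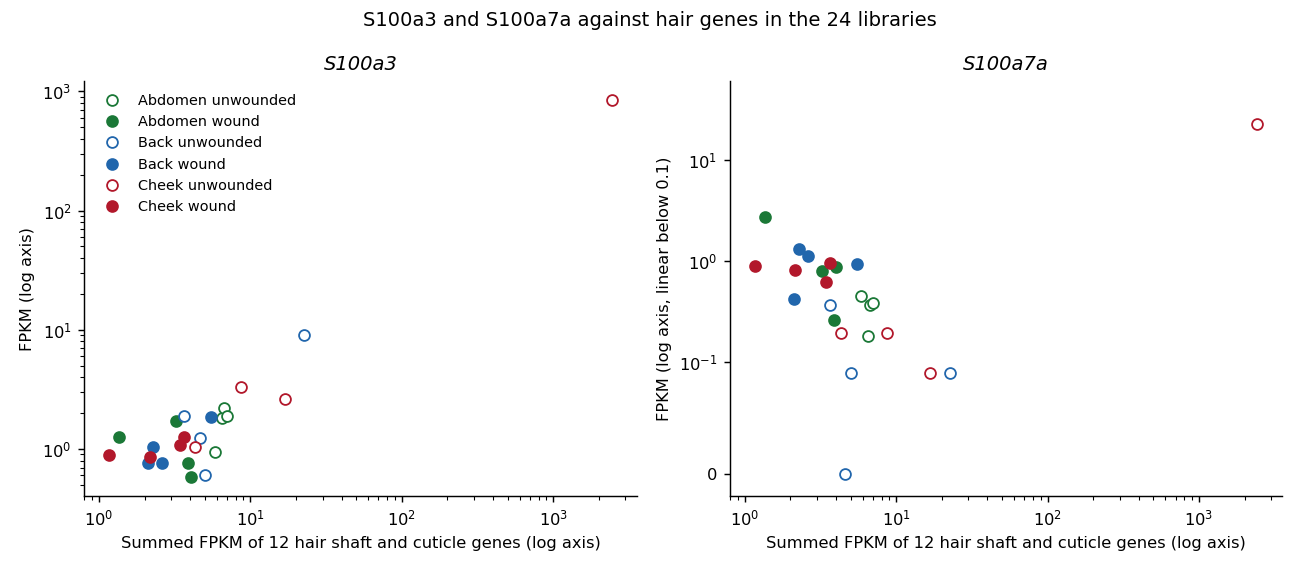
FPKM of S100a3 (left) and S100a7a (right) in the 24 libraries against the summed FPKM of 12 hair shaft and cuticle genes, on log axes (S100a7a is linear below 0.1); open circles are unwounded skin and filled circles wounds, coloured by site. The unwounded library of cheek mouse 4 lies at 2429 FPKM of hair genes, apart from the other 23.

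The second comparison asked whether the response to wounding differed between sites. No member was called in the F test of the 3 wound effects (limma, adjusted p under 0.05), where 0.0208% of all tested genes were called. An unadjusted p under 0.05 was found for 1 of 10 members, with no share of all tested genes given at that rule. The smallest p in this limma F test was that of S100a10 (unadjusted 0.021; adjusted p = 0.303). Its effect in back exceeded that in abdomen by 0.51, with a 95% interval of 0.14 to 0.88 (log2). For S100a8 the adjusted p was 0.498 and for S100a9 it was 0.449. The effect of S100a9 in cheek exceeded that in abdomen by 1.30, with a 95% interval of 0.01 to 2.60 (log2; adjusted p = 0.418).

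The third comparison set the sites against each other without wounding. Of the 9 members tested (S100a7a was too low), none was called in any pair of sites (limma, adjusted p under 0.05). Of all tested genes, 2.67%, 2.57% and 1.05% were called in back against abdomen, cheek against abdomen and cheek against back. In the same order, 3, 1 and 1 members had an unadjusted p under 0.05. The share of all tested genes at that looser rule is not given, so these counts have no background. All genes together were shifted by a median of -0.12 in back against abdomen and of 0.14 in cheek against back (log2), and the differences below are to be read against that shift. S100a10 was at a mean of 367 FPKM ± 27.5 in back and 508 ± 91.8 in abdomen (SD, n = 4), without overlap, a difference of -0.45 ± 0.14 (log2 ± SE; adjusted p = 0.101; exact permutation p = 0.0286, the smallest that 4 against 4 allow). S100a14 was at 242 FPKM ± 27.0 and 371 ± 66.5 (-0.60 ± 0.18; adjusted p = 0.0877), and S100a16 at 218 ± 20.5 and 298 ± 58.1 (-0.43 ± 0.19; adjusted p = 0.21).

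S100a9 was lower in unwounded cheek (mean 2.44 FPKM ± 0.889; SD, n = 4) than in back (8.37 ± 2.95) without overlap, a difference of -1.57 ± 0.44 (log2 ± SE; adjusted p = 0.112; exact permutation p = 0.0286). Against abdomen (7.18 ± 4.53) the difference was -1.22 ± 0.44 (adjusted p = 0.167). Libraries did not overlap for 1 member in back against abdomen, 0 in cheek against abdomen and 1 in cheek against back, beside 13.3%, 10.6% and 14.6% of tested genes. Without abdomen mouse 4 the adjusted p of S100a10 and S100a14 in back against abdomen fell to 0.0411 and 0.0375 and that of S100a9 in cheek against abdomen to 0.0406, and without cheek mouse 4 that of S100a14 was 0.0493. In a fit of all 24 libraries as 6 groups S100a10 and S100a14 also passed (0.0366 and 0.014). Skeletal muscle genes, led by Acta1, summed to 471 and 2511 FPKM in unwounded abdomen mice 2 and 3 and to at least 10640 in the other 10 unwounded libraries. S100a10 had its highest 2 values of the 24 libraries in those pieces (597 and 573 FPKM), and the part of muscle in this difference was not tested.

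The wounds of the 3 sites were compared last. No member of the 10 was called (limma, adjusted p under 0.05). Of all tested genes, 1.27%, 10.8% and 2.50% were called in back against abdomen, cheek against abdomen and cheek against back. In the same order, 1, 2 and 1 members had an unadjusted p under 0.05, with no share of all tested genes given at that rule. For 0 members did the wound libraries of a pair of sites not overlap, beside 9.16%, 19.0% and 21.3% of tested genes. S100a14 was at a mean of 291 FPKM ± 14.1 in back wounds, 295 ± 27.0 in cheek wounds and 382 ± 69.7 in abdomen wounds (SD, n = 4). Its difference from abdomen was -0.37 ± 0.12 in back and -0.36 ± 0.12 in cheek (log2 ± SE; adjusted p of 0.146 and 0.0725), and without abdomen mouse 4 both passed (0.0316 and 0.0162). S100a16 in cheek against abdomen wounds had a difference of -0.32 ± 0.14 (adjusted p = 0.149), and an adjusted p of 0.044 without abdomen mouse 4. S100a10 was lower in cheek than in back wounds by 0.30 ± 0.13, a value that did not pass (adjusted p = 0.17). For S100a8 the difference of cheek from back wounds was -0.57, with a 95% interval of -1.70 to 0.56 (log2), and for S100a9 it was -0.49 (-1.65 to 0.66). Site comparisons share libraries and are not independent of each other.

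The rest of the family and its partners were read from lists. Of 9 other S100 genes, 3 were tested, and 2 fell with wounding while none rose, where 14.4% of all tested genes were called lower. S100a1, known from muscle, fell by 0.90 ± 0.09 (log2 ± SE; adjusted p = 2.57e-06), and S100b, known from Schwann cells, fell by 0.69 ± 0.13 (adjusted p = 0.000618). The summed skeletal muscle list ran from 471 to 21490 FPKM in unwounded skin and from 1620 to 6268 in wounds, the Schwann cell list from 66.1 to 389 and from 25.6 to 154, and no gene of either passed 0.001. At an adjusted p under 0.05, 6 of 6 muscle genes and 4 of 5 Schwann cell genes were lower and none higher. The share of all tested genes called lower at 0.05 is not given here, so these counts have no background. Median effects of the muscle and Schwann cell lists were -1.36 and -0.80 (log2), beside 0.02 over all tested genes. The part of muscle and Schwann cells in the fall of S100a1 and S100b was not tested. S100a5, S100g and S100z were at most 0.55, 0.48 and 0.32 FPKM, and S100a2, S100a7l2 and S100p were not analysed here. Of 7 fused S100 genes, 4 were tested, and 1 was called higher and 1 lower, beside 19.1% and 14.4% of all tested genes. Rptn, an epidermal matrix protein encoded near the cluster, rose by 3.41 ± 0.18 (log2 ± SE) and Flg2 fell by 1.55 ± 0.14. Rptn was also lower in unwounded back than abdomen, with a difference of -0.95 ± 0.23 (limma, adjusted p = 0.0471). That comparison called 2.67% of all tested genes.

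Of the 9 receptors and adaptors tested, 4 rose and 1 fell with wounding, where 19.1% of all tested genes were called higher and 14.4% lower. Cd14, the co-receptor of Tlr4, rose by 3.72 ± 0.14 (log2 ± SE), Myd88, the adaptor below Tlr4, by 0.92 ± 0.06, Ly96, which encodes MD-2, by 0.78 ± 0.07, and Mcam, an adhesion receptor that binds S100a8 and S100a9, by 0.74 ± 0.07. Cd36, a scavenger receptor, fell by 0.59 ± 0.08. Tlr4 itself had an effect of 0.37 ± 0.09 with an adjusted p of 0.00248, and Ager was under 1 FPKM on average in every group. Tlr4 was higher in cheek than in abdomen wounds by 0.57 ± 0.16 (adjusted p = 0.0403), and Cd36 was higher in cheek than in back wounds by 0.62 ± 0.13 (adjusted p = 0.0358), in comparisons that called 10.8% and 2.50% of all tested genes.

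Of 10 intracellular partners, 3 rose and 1 fell, beside 19.1% and 14.4% of all tested genes. Myh9, the non-muscle myosin that S100a4 binds, rose by 0.86 ± 0.08 (log2 ± SE), Anxa6, another annexin, by 0.32 ± 0.04 and Anxa2, the partner of S100a10, by 0.31 ± 0.06. Ahnak, a large scaffold that binds the complex of S100a10 and annexin A2, fell by 0.33 ± 0.04. Padi3 had an effect of -0.40 ± 0.54 (adjusted p = 0.539), with cheek mouse 4 included. Anxa1 had 0.14 ± 0.06 and did not pass (adjusted p = 0.0504). Anxa2 was also lower in unwounded cheek than abdomen, with a difference of -0.52 ± 0.13 (limma, adjusted p = 0.0493). That comparison called 2.57% of all tested genes.

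Genes most like each member were found from the correlation of deviations from the 6 group means over the 24 libraries, among 13060 genes with a mean of at least 1 FPKM. S100a14 and S100a16 were each other's closest gene, with r = 0.97, and remained at 0.96 over the 12 wounds alone. Dynll1, a dynein light chain, came next for both (0.95 and 0.94), followed by Tmem54 (0.94) for S100a14 and Eif5a (0.94) for S100a16. S100a9 was most like Klk6, a kallikrein protease (0.83), Gskip (0.83) and Idi1 (0.82), and S100a8 like Mrpl45 (0.78), Rab24 (0.73) and Dbi (0.73). In the 12 wounds these 3 values for S100a8 were 0.58, 0.58 and 0.55. In the 12 unwounded libraries, where S100a8 had a mean of 6.47 FPKM, they were 0.91, 0.83 and 0.81. S100a10 was most like Tmsb4x, an actin-binding peptide (0.84), Sri, a calcium-binding protein (0.83), and Anxa5, an annexin (0.83). S100a11 was most like Zfp511 (0.83), Emc10 (0.83) and Txn1 (0.82), S100a6 like Stard5 (0.85), Prr14 (0.85) and Arf6 (0.83), and S100a4 like Snx1 (0.84), Rgs19 (0.83) and Nagk (0.83).

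For S100a3 the closest genes were Prr9 (0.98), Krtap2-4, a hair keratin-associated protein (0.97), and Gm11562 (0.97), and without cheek mouse 4 the values were 0.85, 0.76 and 0.78. For S100a7a they were Pinlyp (0.92), Pgm1 (0.91) and Gja1 (0.91), with 0.48, 0.44 and 0.49 when both libraries of that mouse were left out, and 0.61, 0.70 and 0.82 over the 12 wounds alone. S100a14 and S100a16 also ran with the summed interfollicular epidermis genes (r = 0.69 and 0.66), whose sum lay between 5396 and 10170 FPKM in unwounded skin and between 10100 and 18240 in wounds. Their r with the wound-edge keratinocyte sum was as high (0.698 and 0.705). S100a11, S100a6 and S100a9 had r of 0.68, 0.61 and 0.59 with the interfollicular sum. Krt2 of the interfollicular list was at 1 FPKM or less in every library. All these correlations are descriptions over 24 libraries that share depth and tissue composition.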

How the data were processed

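RNA from whole skin and day 3 wounds (24 libraries, 12 mice) was read from both fragment ends (100 bases each; BGISEQ-500). The FPKM values were deposited by the authors as their provider made them: reads were filtered, mapped to GRCm38/mm10 with HISAT2, aligned to transcripts with Bowtie2 (version 2.2.5) and quantified per library with RSEM (version 1.2.12), rounded to 2 decimals and not scaled between libraries. RSEM divides reads that fit several genes, so paralogues and overlapping genes share some uncertainty. A second deposited table gives the authors' own DESeq2 comparisons (log2 fold changes, adjusted p) and was not used. All 24 value columns matched a label, and 0 were left unused.

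Each FPKM value plus a pseudocount of 0.5 was taken to log2, and limma (3.58.1; R 4.3.3) was applied with trend and robust moderation, so folds of low genes are understated. A gene entered a fit when 4 or more of its libraries reached 0.5 FPKM, and p values were adjusted by Benjamini-Hochberg over all of them. Wound effects were fitted over 24 libraries with a term per mouse (threshold 0.001), sites within the 12 unwounded or 12 wound libraries (threshold 0.05), and an F test compared the 3 wound effects. Single values were also tested by exact permutation. Scripts were tested on simulated data.

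The members and gene lists were chosen with earlier results of these data known. All 10 members were named, with the 2 genes of each family or pathway list that had the largest mean wound effect, any other gene of a list that was called, and the 3 genes most like each member. Padi3 stands on a partner and a hair list. The wound and unwounded libraries pair by mouse, as the labels and methods give it: their deviations from group means correlated across genes above 0.1 in 11 of 12 mice (mean 0.32). FPKM totals per library were 490830 to 561753 in unwounded skin and 532586 to 608888 in wounds, with 15781 to 16577 genes above 0. Counts are not in the table, so counting error is unknown; the lowest steps of 63 rare genes put relative depth between 0.909 and 1.08, a rough estimate. No 2 libraries held identical values. Alternatives were other pseudocounts and filters, median-ratio and quantile scaling, plain moderation, other model terms or sets of libraries, and each mouse left out.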

Additional observations from a re-analysis of the deposited data

Results flagged for a closer look

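In 4 of 60 groups of 4 libraries, 1 library lay further from the others than Dixon's 95% limit; chance alone gives about 1 in 20. S100a3 was at 846.52 FPKM in the unwounded cheek skin of mouse 4, with 3.33 FPKM next highest. S100a7a was at 22.51 FPKM in the same library, with 0.19 next highest. S100a3 was at 9.07 FPKM in the unwounded back skin of mouse 2, with 1.89 next highest; the hair gene sum was 22.6 FPKM there. S100a14 was at 281.84 FPKM in the unwounded back skin of mouse 1, with 232 next highest.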

How the results depend on the processing

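S100a8 and S100a9 passed 0.001 at all 3 sites under every alternative run except the 8 abdomen libraries alone. There 0 members were called in place of 2, and the cause was not tested. The 8 libraries of a site alone also left 3 members in back (S100a6 lost) and 2 in cheek (S100a11 lost). In the back, 4 called members became 2 with quantile normalisation and 8 at an adjusted p under 0.05, and in the cheek 3 became 5 at 0.05. Unwounded back against abdomen went from 0 to 2 in the fit of all 24 libraries as 6 groups. With each mouse left out, the counts lay between 2 and 4 in back, 2 and 3 in cheek and 5 and 6 for the mean effect, stayed at 2 in abdomen, and ran from 0 to 2, 0 to 1 and 0 to 0 for unwounded back against abdomen, cheek against abdomen and cheek against back, and from 0 to 1, 0 to 2 and 0 to 0 for the same pairs of wounds. Of the 30 genes named as most like a member, 30 had r of at least 0.7 over 24 libraries, 27 without cheek mouse 4 and 19 in the 12 wounds alone. They were picked by their r over the 24 libraries, of which the other sets are parts, so these counts are not independent tests.

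Effects that changed sign passed no test in either fit. S100a7a in cheek turned to 0.22 with a pseudocount of 0.1 and to 1.00 without cheek mouse 4 (range with mice left out -0.80 to 1.00). The mean effect of S100a10 turned to -0.02 with median-ratio scaling (-0.021) and with quantile normalisation (-0.023), and ran from -0.040 to 0.055 with mice left out. S100a14 turned to -0.039 in abdomen with quantile normalisation, and ran from -0.16 to 0.030 in cheek with mice left out. Of 469 values of single members under the other settings, 447 kept their direction and their side of the threshold, 10 moved past it and 8 no longer passed.

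The mouse term is the replicate block of the wound fits. With no replicate block the counts were 2 in abdomen, 3 in back, 2 in cheek, 5 for the mean effect and 0 in the F test, with S100a11 lost in back and cheek. Across sites a mouse number is only a name (correlations between -0.37 and 0.22), and a replicate block on it called 0 members in all 6 site comparisons.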
